A study of Mus musculus with 6 samples.

Results

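The genes described here are 31 mouse genes of glycolysis and of the response to low oxygen, chosen by name. A gene's probes were those whose RefSeq accession maps to its symbol. All 31 of them had a probe among the 19988 genes that could be named on the array, with 51 probes in all, and all 31 were among the 13140 genes tested. They are 14 enzymes from hexokinase to pyruvate kinase, both lactate dehydrogenase subunits, 3 glucose and lactate transporters, 2 enzymes that set the level of fructose 2,6-bisphosphate, 3 genes of pyruvate dehydrogenase and its kinases, 3 genes of the oxygen sensor and 4 effectors induced by hypoxia. RNA came from sorted S-phase cells of C57BL/6J embryos at embryonic day 14.5, dissected from the dorsal telencephalon, which becomes the cerebral cortex. Tis21-GFP positive cells were measured on 3 arrays and Tis21-GFP negative cells on another 3. Both groups came from embryos heterozygous for a GFP knock-in at Tis21 (Btg2), a locus that is switched on in progenitors committed to making neurons, so the negative cells carry the reporter allele too. Each replicate pooled 15 embryos (30 hemispheres) and about 200000 sorted cells, and the replicates were independent experiments, of which the authors kept the 3 they judged best, by a criterion not stated in the labels.

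Glycolysis splits glucose into pyruvate in the cytosol, and lactate dehydrogenase then turns pyruvate into lactate, while pyruvate dehydrogenase sends it into the mitochondrial citrate cycle. When oxygen is plentiful, prolyl hydroxylases mark the HIF alpha subunit for destruction. When oxygen is scarce the subunit accumulates, binds DNA at a short core element and switches on transporters, most glycolytic enzymes and genes such as Vegfa. In the developing cortex, apical progenitors are known for a strongly glycolytic metabolism, with a turn towards mitochondrial respiration as neurons form.

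The core of the hypoxia response element is ACGTG or GCGTG. Promoter windows of 300 bases (250 before and 50 after a gene's start) were taken from RefSeq, build GRCm38.p6, for 30 of the 31 genes. Slc2a3, which was lower in positive cells, had no window. The 30 genes gave 43 windows because several genes have more than 1 start. ACGTG, searched on both strands with overlapping matches merged, occurred in 23 of the 43 windows (53.5%) and in 19.6% of all 32851 RefSeq windows of this length. The median GC content was 62.3% in the 43 windows and 52.7% in all windows. GCGTG occurred in 32.4% of all windows, and its share of the 43 windows was not computed. A match is a description of the letters only. The first 5 windows below belong to genes whose signal differed strongly between replicates. Slc16a3, Bnip3 and Ddit4 also differed between groups within each replicate. Vegfa and Pfkfb3 differed strongly between replicates too, and their windows are not shown. The last window belongs to Eno2, which was lower in Tis21-GFP positive cells. Capitals mark ACGTG or its reverse complement CACGT, merged to CACGTG where the matches overlap.
Slc16a3 (chr11:120948817-120949116, plus strand): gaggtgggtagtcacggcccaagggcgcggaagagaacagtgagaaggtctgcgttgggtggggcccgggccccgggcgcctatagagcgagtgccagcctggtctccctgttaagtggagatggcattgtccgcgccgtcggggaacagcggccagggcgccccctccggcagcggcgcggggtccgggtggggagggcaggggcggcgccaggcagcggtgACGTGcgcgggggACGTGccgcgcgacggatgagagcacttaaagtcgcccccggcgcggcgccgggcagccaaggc
Ankrd37 (chr8:45999801-46000100, minus strand): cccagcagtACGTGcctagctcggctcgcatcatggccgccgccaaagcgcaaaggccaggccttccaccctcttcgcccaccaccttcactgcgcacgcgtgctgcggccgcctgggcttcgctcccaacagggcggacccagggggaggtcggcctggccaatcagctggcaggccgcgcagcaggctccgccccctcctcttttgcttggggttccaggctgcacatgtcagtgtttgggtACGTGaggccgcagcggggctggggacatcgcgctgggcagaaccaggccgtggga
Egln3 (chr12:54203825-54204124, minus strand): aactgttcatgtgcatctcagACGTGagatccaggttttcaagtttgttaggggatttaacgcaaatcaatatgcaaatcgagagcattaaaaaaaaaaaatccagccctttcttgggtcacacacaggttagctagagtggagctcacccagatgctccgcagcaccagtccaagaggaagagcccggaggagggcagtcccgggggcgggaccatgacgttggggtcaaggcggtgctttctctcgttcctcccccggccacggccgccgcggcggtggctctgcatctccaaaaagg
Bnip3 (chr7:138909457-138909756, minus strand): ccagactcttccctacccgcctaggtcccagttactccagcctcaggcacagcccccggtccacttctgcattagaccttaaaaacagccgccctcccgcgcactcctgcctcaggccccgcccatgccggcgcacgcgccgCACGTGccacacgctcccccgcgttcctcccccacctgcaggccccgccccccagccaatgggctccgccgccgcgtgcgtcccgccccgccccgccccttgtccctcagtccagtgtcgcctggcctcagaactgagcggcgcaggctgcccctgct
Ddit4 (chr10:59951721-59952020, minus strand): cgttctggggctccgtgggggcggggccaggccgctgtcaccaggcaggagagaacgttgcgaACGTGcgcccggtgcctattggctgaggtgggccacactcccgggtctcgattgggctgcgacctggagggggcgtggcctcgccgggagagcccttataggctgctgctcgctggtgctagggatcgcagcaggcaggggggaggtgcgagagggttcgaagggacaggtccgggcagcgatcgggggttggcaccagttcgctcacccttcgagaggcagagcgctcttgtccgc
Eno2 (chr6:124769624-124769923, minus strand): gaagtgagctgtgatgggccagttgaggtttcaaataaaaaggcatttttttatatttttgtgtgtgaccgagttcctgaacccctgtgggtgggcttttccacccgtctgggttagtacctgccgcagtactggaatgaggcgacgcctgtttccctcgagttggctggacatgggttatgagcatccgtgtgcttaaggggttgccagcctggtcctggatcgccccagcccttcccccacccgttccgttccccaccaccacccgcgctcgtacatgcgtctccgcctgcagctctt
Slc16a3 and Ankrd37 held 2 ACGTG sites each, Bnip3, Egln3 and Ddit4 held 1 each, and the Eno2 window held 0. GCGTG, not marked by capitals, occurred 3 times in the Bnip3 window, 1 time each in those of Ankrd37 and Ddit4, and 0 times in the other 3. Windows of other genes among the 31 held as many ACGTG sites, with 3 in a window of Ldha and 2 in a window each of Pgk1, Hk1, Hk2, Hif1a, Pfkm, Pkm and Slc16a1. The window of Pfkp, which was lower in positive cells, held 0 ACGTG and 4 GCGTG. Each Pfkfb3 window held 1 ACGTG. Vegfa held 1 ACGTG and 1 GCGTG in its window at chr17:46025114-46025413, and 0 of either in that at chr17:46032328-46032627.

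Probes well above background made up 51.2% to 56.2% of all probes per array, and correlations across genes were 0.983 to 0.992 within groups and 0.954 to 0.972 across groups. Levels are given as scaled log2 signal, the log2 intensity minus the 75th percentile of its array, which makes arrays comparable gene by gene but does not allow a comparison of level between genes. Differences were taken as positive minus negative cells on that log2 scale and are given with limma's moderated SE. The sorted reporter gene Btg2 was higher in positive cells by 0.77 ± 0.17 (limma adjusted p = 0.0139), and Eomes, a transcription factor of intermediate progenitors, by 3.42 ± 0.24 (limma adjusted p = 0.000183). All 9 markers of dorsal telencephalic progenitors, including Emx1 and Pax6, were well above background on arrays of both groups. Of 9 ventral telencephalic markers, Nkx2-1 was not well above background in either group, and Gsx2 was not in negative cells. The other ventral markers were well above background on arrays of both groups. The 9 summed to 7.51 to 9.38 on positive and 7.445 to 12.32 on negative arrays, and of 7 tested 1 rose and 1 fell. Deviations from the group means were weakly correlated between arrays with the same replicate number, at 0.227, 0.133 and 0.374 for numbers 1 to 3. Both replicate 3 arrays stood above the other 4 for 5 of the 7 oxygen sensor and effector genes described below.

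Of the 31 glycolysis and hypoxia genes, 3 fell in Tis21-GFP positive cells and 0 rose by limma's adjusted p under 0.05. This fit had group as its only term and did not pair arrays by replicate number. The 3 were Pfkp, Eno2 and Slc2a3, the platelet-type phosphofructokinase, the neuronal enolase and the neuronal glucose transporter GLUT3. They make 9.68% of the 31 genes, whereas 25.9% of all genes tested passed that threshold, 12.8% higher and 13.1% lower. With the replicate number as a block, 2 genes rose (Bnip3 and Ddit4) and 4 fell (Slc16a3 in addition). In that fit 30.3% of all genes passed, 15.4% higher and 15.0% lower. Under 4 other scalings of the arrays 5 of the 31 fell, Hk1 and Pfkfb4 in addition. The split of all genes moved from even (1687 higher and 1716 lower) to as far as 933 higher and 2276 lower. Quantile normalization and the authors' values, counted as separate scalings here and among the alternatives below, gave nearly the same results (Hk1 -0.517 and -0.518). The median difference was 0.04 over the 14 glycolytic enzymes, 0.15 over the 7 genes of the oxygen sensor and its effectors, and 0.12 over all genes tested. Groups did not overlap for 8 of the 31 genes (25.8%), with positive arrays above negative arrays for Gapdh, Ldhb and Hif1a and below them for Hk1, Pfkp, Eno2, Slc2a3 and Pfkfb4. Among all genes tested 46.7% did not overlap, 28.1% above and 18.6% below.

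**Figure D1:**
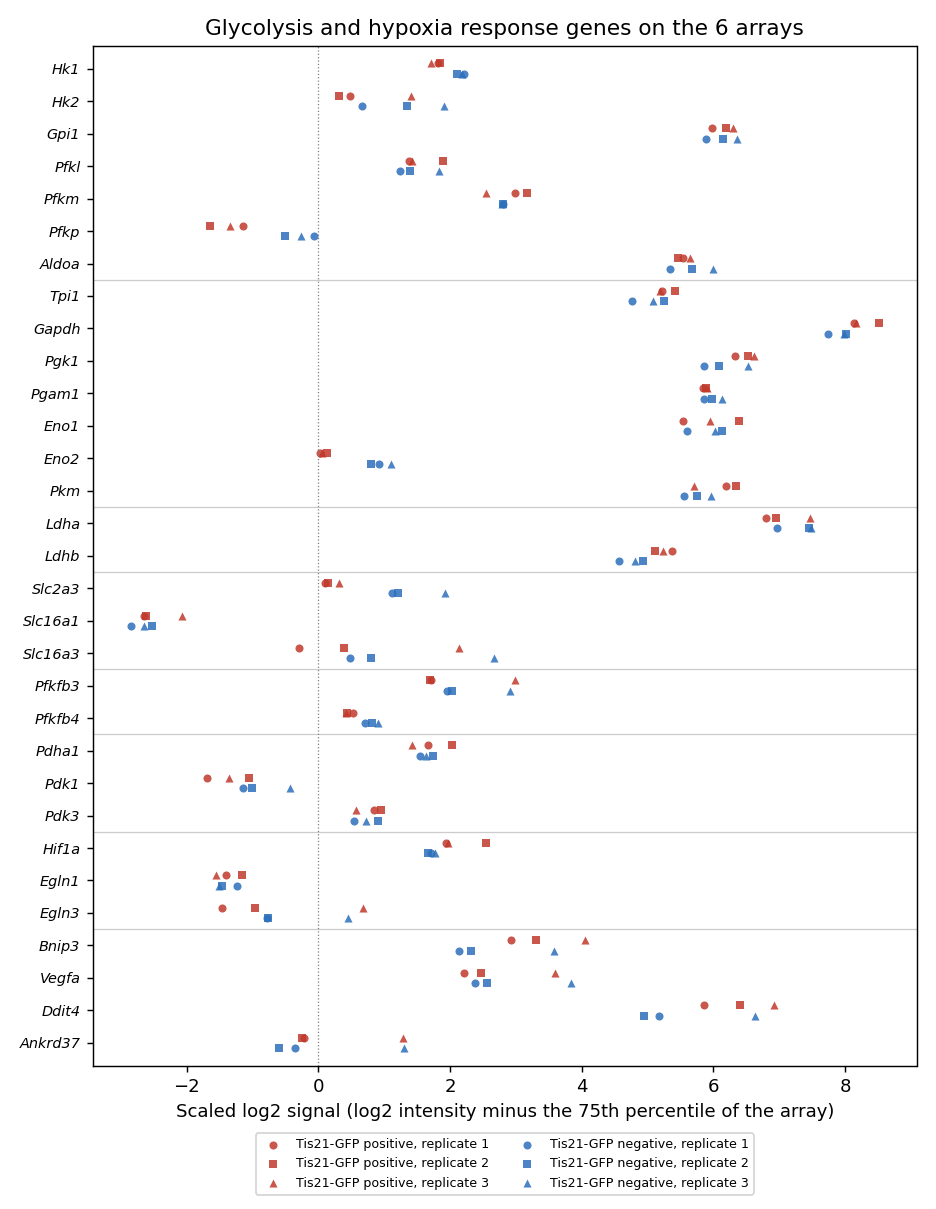
Scaled log2 signal (x axis) of the 31 genes (rows, in pathway order with grey lines between roles) on the 6 arrays, with Tis21-GFP positive arrays in red above negative arrays in blue and the replicate number as the symbol. Pfkp, Eno2 and Slc2a3 show the clearest gap between groups, and triangles (replicate 3) lie to the right for Slc16a3, Pfkfb3, Egln3, Bnip3, Vegfa, Ddit4 and Ankrd37; levels cannot be compared between rows.

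In the upper part of the pathway, from glucose to triose phosphates, 1 of 7 enzymes fell in Tis21-GFP positive cells. Among all genes tested 13.1% were called lower. Pfkp encodes an isoform of phosphofructokinase, the committed step. Pfkp had a scaled log2 signal of -1.15, -1.64 and -1.34 on the positive arrays, against -0.07, -0.51 and -0.26 on the negative arrays. Every positive array was below every negative array, and the gap within each replicate was nearly the same, at -1.08, -1.13 and -1.08. The difference was -1.10 ± 0.18, a ratio of 0.467 (limma adjusted p = 0.00377), and it passed the threshold under all 18 alternatives, where it lay between -1.27 and -0.61. The smaller values come from the background correction and from the second Pfkp probe, which differed by -0.12, so that the mean of both probes gave -0.61.

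The other phosphofructokinase genes did not pass the test. Pfkl, the liver isoform, differed by 0.07 ± 0.21 and Pfkm, the muscle isoform, by 0.09 ± 0.18. The difference of Pfkp from Pfkl within each array changed by -1.17 between positive and negative cells, with no overlap between groups, but an exact two-sided permutation test of 3 against 3 arrays cannot go below p = 0.1, which it reached (adjusted over the 4 paralogue pairs compared, p = 0.133).

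The 2 hexokinase genes, whose products trap glucose inside the cell, were both lower on positive arrays without passing the test. Hk1 read 1.81, 1.86 and 1.71 on the positive arrays, against 2.21, 2.11 and 2.18 on the negative arrays. All 3 positive arrays were below all 3 negative arrays, and the difference of -0.37 ± 0.12 missed the threshold narrowly (limma adjusted p = 0.0594), passing it under 6 of 18 alternatives. Hk2, the isoform known as a HIF target, read 0.48, 0.31 and 1.41 on the positive arrays, against 0.66, 1.34 and 1.90 on the negative arrays. The groups overlapped, the highest value of each being in replicate 3, and the difference was -0.57 ± 0.37 (limma adjusted p = 0.277). Hk2 against Hk1 within arrays differed by -0.20 with overlapping groups (exact permutation p = 0.7, adjusted p = 0.7), and its sign changed when single arrays were left out. Gpi1, which interconverts the hexose phosphates, and Aldoa, which cleaves the hexose bisphosphate, differed by 0.03 ± 0.17 and -0.12 ± 0.18.

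In the lower part of the pathway, from triose phosphates to pyruvate, 1 of 7 enzymes fell, beside 13.1% of all genes called lower. Eno2 encodes the enolase isoform typical of neurons. Eno2 read 0.02, 0.13 and 0.06 on the positive arrays, against 0.92, 0.80 and 1.11 on the negative arrays. Positive arrays lay within a narrow band and all below the negative ones. The difference was -0.87 ± 0.14, a ratio of 0.547 (limma adjusted p = 0.00299), and it passed the threshold under 17 of 18 alternatives, between -1.04 and -0.73. It did not pass without replicate 1 of both groups, where the difference was -0.86 (limma adjusted p = 0.0507).

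Eno1, the enolase found in most cells, had overlapping groups, with 5.54, 6.39 and 5.95 on the positive arrays, against 5.605, 6.13 and 6.02 on the negative arrays. Its difference was 0.04 ± 0.24. The difference of Eno2 from Eno1 within each array changed by -0.91 between positive and negative cells, with no overlap between groups (exact permutation p = 0.1, the smallest possible, adjusted p = 0.133).

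The 5 other enzymes of this lower part included the largest positive differences among the glycolytic enzymes, none past the threshold. Gapdh, which oxidises glyceraldehyde phosphate, read 8.13, 8.52 and 8.16 on the positive arrays, against 7.74, 8.01 and 7.98 on the negative arrays. Positive arrays were all above negative arrays, yet the difference of 0.36 ± 0.16 was not called (limma adjusted p = 0.128), although all 7 Gapdh probes differed in the same direction, by 0.21 to 0.56. Pgk1, the first ATP-yielding enzyme, differed by 0.34 ± 0.19, Pkm, which makes pyruvate, by 0.33 ± 0.20, and Tpi1, which interconverts the triose phosphates, by 0.24 ± 0.16. Pgam1, a phosphoglycerate mutase, differed by -0.11 ± 0.13. Gapdh, Pgk1, Tpi1, Aldoa, Eno1 and Ldha have near-identical copies in the mouse genome, and cross-hybridisation of their probes was not tested. Over the 12 glycolytic enzymes that were not called, differences ran between -0.57 and 0.36 and the outermost 95% bounds were -1.43 and 0.79. A missing call does not show equal levels, since differences within an enzyme's own 95% interval remain compatible with the 3 arrays per group.

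**Figure D2:**
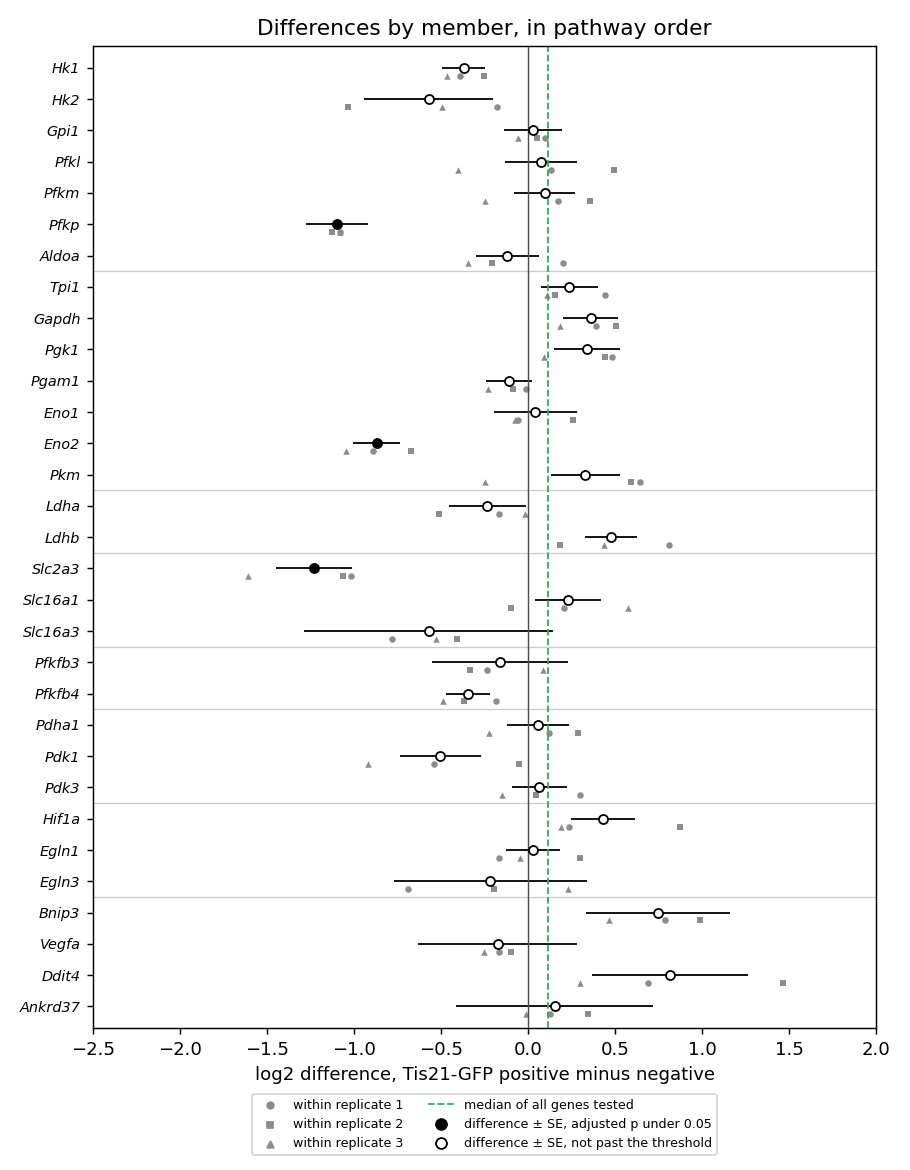
Log2 difference, Tis21-GFP positive minus negative (x axis), for the 31 genes (rows, in pathway order), as points with the limma SE, filled where the adjusted p was under 0.05, with the within-replicate differences as small grey symbols and the median of all genes as a dashed line. The 3 filled points, from the fit without the replicate block, are Pfkp, Eno2 and Slc2a3, at -1.10, -0.87 and -1.23. Most enzymes sit close to the dashed line at 0.12.

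The lactate dehydrogenase subunits differed in opposite directions, with neither called. Ldhb, whose subunit favours pyruvate formation from lactate, read 5.38, 5.12 and 5.24 on the positive arrays, against 4.56, 4.93 and 4.80 on the negative arrays. The positive arrays were all above the negative arrays, and the difference of 0.48 ± 0.15 lay at the threshold (limma adjusted p = 0.05002, just above it), passing under 3 of 18 alternatives. Ldha, whose subunit favours lactate formation and which is a known HIF target, read 6.79, 6.94 and 7.47 on the positive arrays, against 6.96, 7.46 and 7.49 on the negative arrays. Its groups overlapped, the difference was -0.23 ± 0.22, and its 3 probes ran between -0.35 and -0.23. The difference of Ldha from Ldhb within each array changed by -0.71 between positive and negative cells, with no overlap between groups (exact permutation p = 0.1, the smallest possible, adjusted p = 0.133), a change that does not depend on how the arrays are scaled by a constant.

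Of the 3 transporters, the glucose transporter Slc2a3 fell, beside 13.1% of all genes called lower. Slc2a3 read 0.10, 0.15 and 0.31 on the positive arrays, against 1.12, 1.21 and 1.92 on the negative arrays. Positive arrays were close together and all below the negative arrays, of which replicate 3 was the highest. The difference was -1.23 ± 0.22, a ratio of 0.426 (limma adjusted p = 0.00545), within -1.40 to -0.98 under the 18 alternatives and past the threshold under 17 of them. Without replicate 2 of both groups it was -1.31 (limma adjusted p = 0.0508). Slc16a1, a lactate transporter of many tissues, differed by 0.23 ± 0.19 with overlapping groups. Slc16a3, the lactate exporter of glycolytic cells, is described with the replicates below.

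Microglial and mesenchymal markers moved in the same direction as the 3 genes that fell. In RNA from pooled cells fewer cells of a type and less RNA per cell cannot be told apart. All 10 tested microglia and macrophage markers fell in positive cells, with a summed level of 4.37 to 7.92 on the positive arrays, against 14.4 to 18.8 on the negative arrays. All 10 tested markers of meninges and mesenchyme fell too, with a summed level of 12.4 to 19.6 on the positive arrays, against 37.7 to 42.2 on the negative arrays, and Col3a1, Lum, Col6a1, Foxc1, Twist1 and Pdgfra were not well above background on the positive arrays. Of 9 tested endothelial and pericyte markers 6 fell, with a summed level of 9.66 to 10.69 on positive and 8.93 to 9.99 on negative arrays, and 8 of 13 were not well above background in positive cells, including Cdh5 and Pdgfrb. Erythroid markers summed to 10.6 to 27.5 on positive and 16.4 to 28.0 on negative arrays, and 1 of 7 tested fell. Of 12 neuronal markers 5 rose and 4 fell, with a summed level of 173 to 208 on the positive arrays, against 119 to 162 on the negative arrays. Their part in the fall of Pfkp, Eno2 and Slc2a3 was not tested.

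Among the regulators of glycolytic flux and pyruvate entry, 0 of 5 genes passed the test, beside 25.9% of all genes tested. Pfkfb4, which makes and breaks the phosphofructokinase activator fructose 2,6-bisphosphate, read 0.52, 0.44 and 0.42 on the positive arrays, against 0.71, 0.81 and 0.91 on the negative arrays. Positive arrays were all below negative arrays by a small margin, and the difference of -0.35 ± 0.13 passed under 4 of 18 alternatives (limma adjusted p = 0.0772 here). Its relative Pfkfb3 differed by -0.16 ± 0.39. Pdk1, a kinase that switches off pyruvate dehydrogenase and a known HIF target, read -1.68, -1.06 and -1.35 on the positive arrays, against -1.14, -1.01 and -0.43 on the negative arrays. Its groups overlapped in spite of a lower positive value in every replicate, and the difference was -0.50 ± 0.23 (limma adjusted p = 0.142). Pdk3, another such kinase, and Pdha1, the catalytic alpha subunit of pyruvate dehydrogenase, differed by 0.06 ± 0.16 and 0.06 ± 0.18.

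The 3 oxygen sensor genes among the 31, Hif1a, Egln1 and Egln3, showed no called change, where 25.9% of all genes were called. Hif3a and Egln2, which are not among the 31, were called and are described below. Hif1a, the alpha subunit of the hypoxia-inducible factor, read 1.94, 2.54 and 1.96 on the positive arrays, against 1.71, 1.67 and 1.77 on the negative arrays. Positive arrays were all above negative arrays, replicate 2 by the most, and the difference was 0.43 ± 0.18 (limma adjusted p = 0.117). Egln1, the main prolyl hydroxylase, differed by 0.03 ± 0.15, with a 95% interval of -0.33 to 0.39. The transcript of Hif1a does not report on its protein, which is the level at which oxygen is known to act.

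Bnip3 and Ddit4 were higher in positive cells within every replicate, although their groups overlapped because replicate 3 was high in both. Bnip3, a mitochondrial protein of hypoxia-induced mitophagy, read 2.93, 3.31 and 4.05 on the positive arrays, against 2.14, 2.32 and 3.59 on the negative arrays. Each positive array exceeded the negative array of its number, by 0.79, 0.99 and 0.46. The difference was 0.75 ± 0.41 without the block (limma adjusted p = 0.209) and 0.75 ± 0.15 with the replicate block (limma adjusted p = 0.0153). With the block it passed under 13 of 17 further settings. Those 17 settings, used for Ddit4 and Slc16a3 below as well, are not independent. In a fit with the block, leaving out either array of a replicate number, or both, gives the same group difference. The second Bnip3 probe well above background gave 0.71.

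Ddit4, an inhibitor of mTORC1 signalling induced by hypoxia and other stresses, read 5.86, 6.41 and 6.92 on the positive arrays, against 5.18, 4.94 and 6.63 on the negative arrays. The differences within replicates were 0.69, 1.46 and 0.30, all positive and of unequal size. The difference was 0.82 ± 0.45 without the block (limma adjusted p = 0.205) and 0.82 ± 0.23 with the replicate block (limma adjusted p = 0.0464), and with the block it passed under 6 of 17 further settings. Slc16a3 was the reverse case, lower on the positive array of every replicate, by 0.78, 0.41 and 0.53. Its difference was -0.57 ± 0.71 without the block (limma adjusted p = 0.573) and -0.57 ± 0.13 with the replicate block (limma adjusted p = 0.0255), past the threshold in 10 of 17 further settings. On all 6 arrays these 3 genes passed with the block and not without it, as did 5.26% of all genes tested. Without the block Bnip3 and Ddit4 also passed when the negative replicate 3 array was left out, with differences of 1.20 (limma adjusted p = 0.0468) and 1.34 (limma adjusted p = 0.0281), and when replicate 3 of both groups was left out, with differences of 0.89 (limma adjusted p = 0.0360) and 1.08 (limma adjusted p = 0.0302). The values of 1 replicate decided several of these calls: without replicate 1 of both groups the adjusted p with the block was 0.0751 for Bnip3, 0.111 for Ddit4 and 0.152 for Slc16a3.

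The largest differences among these genes ran between replicate numbers, a pattern chosen after the values were seen. Both replicate 3 arrays were above the other 4 arrays for 10 of the 31 genes (32.3%), namely Hk2, Gpi1, Ldha, Slc16a3, Pfkfb3, Egln3, Bnip3, Vegfa, Ddit4 and Ankrd37, and for 5.19% of all genes tested. For replicate 1 the count was 0 (2.33% of all genes) and for replicate 2 it was 4 (6.18% of all genes). Both arrays lay below the other 4 for 5 of the 31 genes in replicate 1 (3.37% of all genes), 0 in replicate 2 (2.77%) and 2 in replicate 3 (7.08%). The mean of replicate 3 exceeded that of the other 4 arrays by at least 1 log2 unit for 7 of the 31 genes (22.6%), and for 59 of all 13140 genes (0.449%). Those 7 covered the lactate exporter, an enzyme that sets the level of fructose 2,6-bisphosphate, a prolyl hydroxylase and all 4 effectors. Their differences between groups were -0.57 to 0.82.

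Slc16a3 had the largest shift, with -0.29, 0.39 and 2.14 on the positive arrays, against 0.49, 0.80 and 2.66 on the negative arrays, so that replicate 3 stood 2.06 above the other arrays. Ankrd37, a small ankyrin repeat protein induced by HIF, read -0.23, -0.25 and 1.29 on the positive arrays, against -0.35, -0.59 and 1.30 on the negative arrays, a shift of 1.65. In both genes the 2 replicate 3 arrays lay above the other 4. Egln3, the prolyl hydroxylase that HIF itself induces, read -1.47, -0.96 and 0.67 on the positive arrays, against -0.78, -0.77 and 0.44 on the negative arrays, a shift of 1.55. Vegfa, the angiogenic growth factor, read 2.21, 2.47 and 3.59 on the positive arrays, against 2.38, 2.57 and 3.84 on the negative arrays, a shift of 1.31. Again replicate 3 was the highest in each group, and the groups overlapped. Pfkfb3 read 1.71, 1.70 and 2.99 on the positive arrays, against 1.95, 2.04 and 2.90 on the negative arrays, a shift of 1.099. Ddit4 and Bnip3 shifted by 1.18 and 1.14. The further probes of Slc16a3, Pfkfb3, Egln3, Bnip3 and Vegfa shifted in the same direction, by 1.21 to 2.06.

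**Figure D3:**
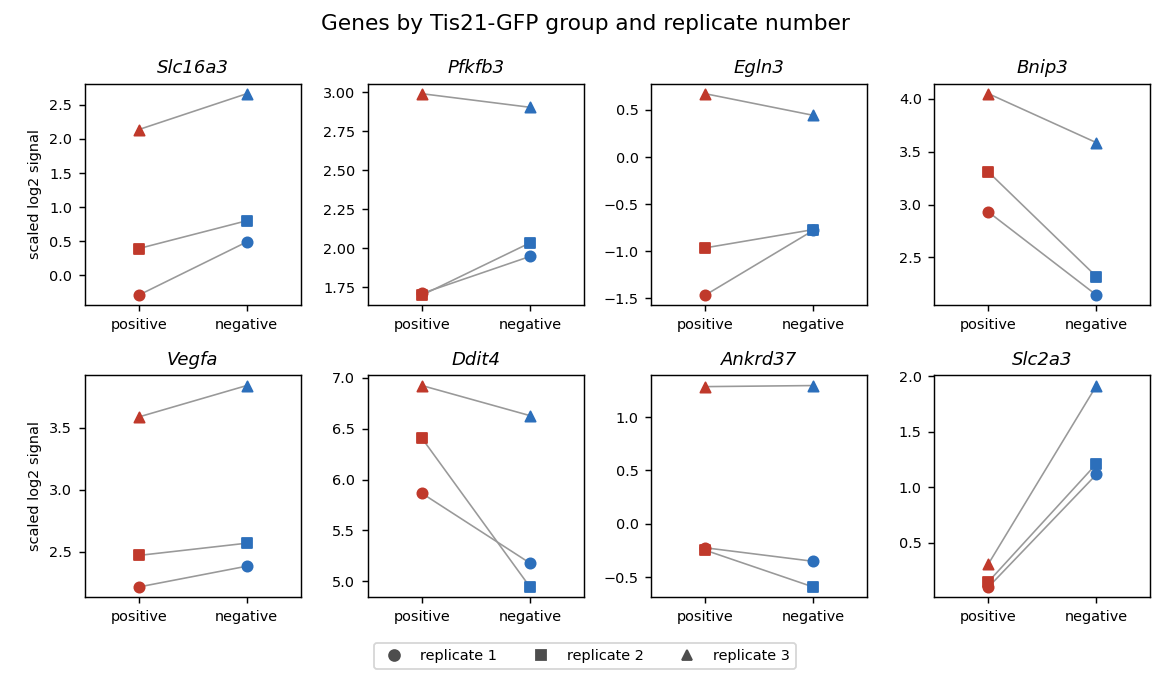
Scaled log2 signal (y axis, its own range in each panel) of 8 genes in Tis21-GFP positive (red, left) and negative cells (blue, right), with lines joining arrays of 1 replicate number. Triangles (replicate 3) lie above the other symbols in both groups for 7 genes, while Slc2a3 separates by group with all positive arrays below 0.32 and all negative arrays above 1.11.

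A limma F test of the replicate number, with group in the model, passed the adjusted threshold for 0 of all genes (0.0%), with a lowest adjusted p of 0.159. At an unadjusted p under 0.05 it took in 1439 genes (11.0%) and 11 of the 31 (35.5%). Ordered by that p, Slc16a3 ranked 1, Ankrd37 ranked 7, Vegfa 11, Egln3 41, Pfkfb3 46 and Bnip3 48 among the 13140 genes. The other genes with both replicate 3 arrays above the rest ranked lower, Hk2 at 275, Ddit4 at 320, Ldha at 1229 and Gpi1 at 2266. With the normexp background correction or with a variance trend and robust fit, 6 of the 31 genes passed the adjusted threshold. How many of all genes passed it in those settings was not counted, so the 0.0% above is no background for the 6. Each replicate number is 1 experiment with 2 arrays, so the replicate test describes these experiments only.

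The glycolytic enzymes as a group did not follow the effectors. The median shift of replicate 3 was 0.09 over the 14 enzymes, 1.18 over the 7 oxygen sensor and effector genes, and -0.06 over all genes tested. Within those 7, Hif1a shifted by -0.10 and Egln1 by -0.21. Aldoa, Pgk1 and Pgam1 shifted by 0.31, 0.37 and 0.13, and Eno1, Gapdh and Pkm by 0.07, -0.03 and -0.13. Hk2 and Ldha shifted more, by 0.96 and 0.44. Beside this, the 75th percentile of intensity was 213 on the positive and 284 on the negative replicate 3 array, against 293 to 341 on the other 4. On replicate 3 the median shift was -0.54 for microglia markers, -0.36 for postmitotic neuron markers, -0.24 for meningeal and mesenchymal markers, 0.11 for endothelial markers, 0.19 for erythroid markers and -0.01 for ventral telencephalic markers. The summed linear scaled signal of the erythroid markers ran in opposite ways on the replicate 3 arrays, at 10.6 on the positive array, the lowest of its group, and 28.0 on the negative array, the highest of its group. The part of any of these in the replicate pattern was not tested.

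**Figure D4:**
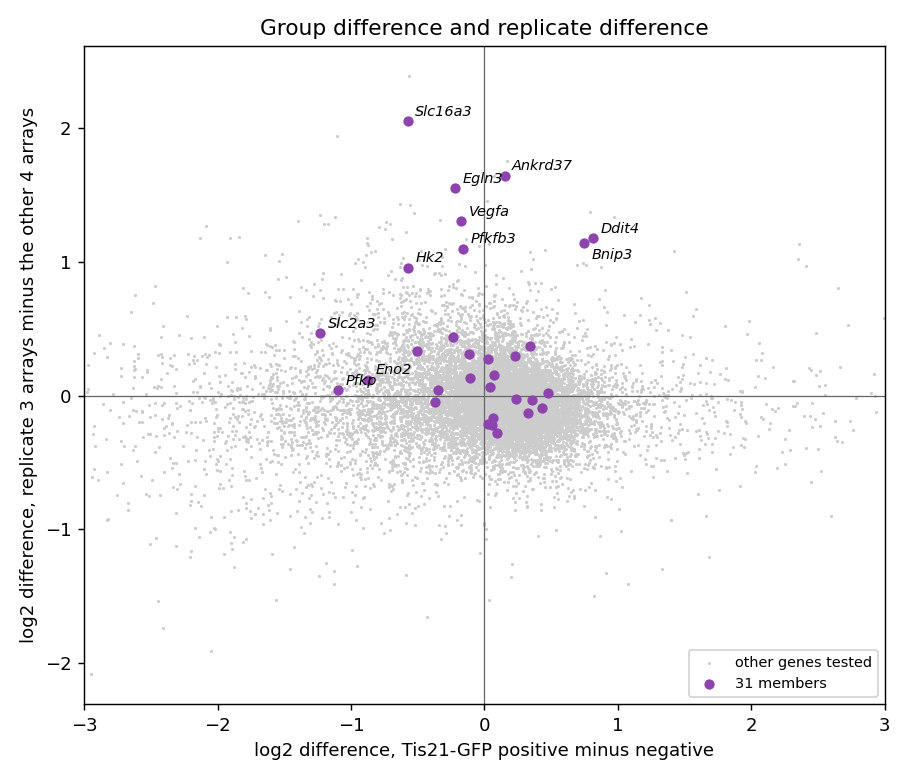
Log2 difference of Tis21-GFP positive minus negative (x axis) against the log2 difference of the replicate 3 arrays minus the other 4 arrays (y axis) for the 31 genes (purple) and all other genes tested (grey), with 44 genes outside the x axis range. Slc16a3, Ankrd37, Egln3, Vegfa, Ddit4, Bnip3 and Pfkfb3 lie at 1.099 or more on the y axis, and Pfkp, Eno2 and Slc2a3 lie to the left at shifts of 0.04, 0.12 and 0.47.

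Other genes of these pathways, taken from lists set by function, gave the following counts. Of 40 tested further hypoxia genes (43 listed), 2 rose and 7 fell, with a median difference of -0.01, and with the replicate block 3 rose and 11 fell. Of all genes tested 12.8% were called higher and 13.1% lower, and with the block 15.4% and 15.0%. Hif3a, a HIF alpha subunit that can oppose the others, read -0.03, 0.09 and -0.20 on the positive arrays, against 1.16, 1.49 and 1.49 on the negative arrays, a difference of -1.43 ± 0.15 (limma adjusted p = 0.000604). Its groups were well apart. Ppp1r3c, which directs glycogen storage, fell by 2.06 and Rora, a nuclear receptor, by 1.28. Arnt2, a partner of HIF alpha subunits in neurons, rose by 0.79 ± 0.17 (limma adjusted p = 0.0131), and Egln2, the third prolyl hydroxylase, by 0.58 ± 0.16 (limma adjusted p = 0.0291).

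Both replicate 3 arrays were above the other 4 for 10 of these 40 genes as well. Of the 40 genes, 5 shifted by at least 1 log2 unit. These were P4ha2, a collagen prolyl hydroxylase, with a shift of 1.94, the peptide hormone precursor Adm with 2.14, the secreted glycoprotein Stc2 with 1.65, the transcriptional repressor Bhlhe40 with 1.18 and the adenylate kinase Ak4 with 1.06. For Bhlhe40 and Ak4 the replicate 3 arrays did not both lie above the other 4. Between groups, Bhlhe40 fell by 1.91 (limma adjusted p = 0.0138). P4ha2 differed by -1.11 (limma adjusted p = 0.248, and 0.00365 with the replicate block) and Ak4 by -0.89 (limma adjusted p = 0.120, and 0.00689 with the replicate block). Adm differed by -0.50 and Stc2 by 0.07, neither past the threshold in either fit. Adm was well above background on 2 of 3 negative arrays. Together with the 7 above, 12 of the 59 genes with such a shift belonged to the hypoxia and glycolysis lists.

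Of 20 tested further glycolysis genes (28 listed), 1 rose and 4 fell, beside 25.9% of all genes tested called in either direction, with a median difference of -0.04. Slc2a4, a glucose transporter best known from muscle and fat, rose by 1.15 ± 0.15 (limma adjusted p = 0.00143). Aldoc, the brain aldolase and a marker of astroglia, read 5.88, 5.22 and 4.85 on the positive arrays, against 6.76, 7.08 and 6.74 on the negative arrays, and fell by 1.54 (limma adjusted p = 0.00397). All positive arrays were below the negative ones. Pgm1, a phosphoglucomutase, fell by 0.77, Slc16a6, a monocarboxylate transporter, by 0.78, and Gpd2, the mitochondrial glycerol phosphate dehydrogenase, by 0.48. With the replicate block 2 rose and 4 fell, beside 30.3% of all genes. Slc2a1, Aldoc and Pfkfb2 stood on both the glycolysis and the hypoxia list.

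Of 12 tested genes of pyruvate entry (13 listed), 2 rose and 1 fell, with a median difference of 0.21, and with the block 4 rose and 1 fell. The shares of all genes called were again 25.9% without and 30.3% with the block. Pdp1, the phosphatase that switches pyruvate dehydrogenase on, rose by 0.86 ± 0.16 (limma adjusted p = 0.00584), and Pdhb, its beta subunit, by 0.51 ± 0.16 (limma adjusted p = 0.0485). Pdk4, a kinase that switches it off, fell by 2.17 (limma adjusted p = 0.00771) but was well above background on only 1 of 3 positive arrays. Of 20 citrate cycle genes 2 rose and 0 fell, with a median of 0.19, where 12.8% of all genes were called higher and 13.1% lower. Idh2, the mitochondrial isocitrate dehydrogenase, read 6.64, 6.596 and 6.55 on the positive arrays, against 5.68, 5.61 and 5.70 on the negative arrays, with no overlap, and rose by 0.93 ± 0.12 (limma adjusted p = 0.00128). Of 10 pentose phosphate genes Rpia, a pentose phosphate isomerase, rose by 0.58, Tkt, transketolase, fell by 0.58, beside the same shares of all genes, and the median was 0.02. These medians stand beside 0.12 over all genes tested.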

How the data were processed

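Each of the 6 samples is 1 array of a 1-colour Agilent design. The deposited scanner files hold intensity per spot from Agilent Feature Extraction 10.7.1.1, background-subtracted and detrended per the file headers and not scaled between arrays. A value table deposited by the authors is on the log2 scale. How it was normalized is not stated in the labels or headers, and its columns correlated with the matching scanner intensities at 0.999 or above. The deposited spot marks (other: well above background, saturated, outlier, control) were used as given by the authors' scanner software.

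Control spots and the 118 to 191 outlier spots per array were left out (0 spots were saturated), spots of a probe were averaged, and each array's 75th percentile of log2 processed intensity was subtracted. Of 55681 probes, 26370 were named through RefSeq accessions (GRCm38.p6), 48 had no value on some array, and the 31 genes were not among those. A gene was its probe with the highest mean, kept when well above background on all 3 arrays of a group. limma 3.58.1 (R 4.3.3; lmFit, eBayes) was fitted over all 13140 genes with group as the only term, Benjamini-Hochberg adjustment and a threshold of 0.05, and was tested on simulated data. Alternatives were normexp background correction (offset 50, on the median spot signal, since no mean signal was given), 4 other scalings, no filter, the mean of probes, a variance trend with robust fit, the replicate block and leaving out arrays. Replicate left-outs of both groups and the F test of the replicate number were added after the values were seen. The number of arrays limits the precision.

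The labels give both groups replicate numbers 1 to 3, and the titles give same-numbered samples a common stem. Arrays of the same number deviated together from their group means (correlations of 0.227, 0.133 and 0.374 for numbers 1 to 3). The highest correlation for any other combination was 0.059. The numbers were therefore treated as pairing the samples in the fits with the replicate block. The main fit, with group as the only term, does not use this pairing. All 31 genes are named, with, from each other list, up to 4 called genes per direction by adjusted p, and 5 hypoxia genes with a large replicate shift chosen after their values were seen. Not every gene named by this rule is reported here. The genes and lists were chosen with earlier results of these data known.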

Additional observations from a re-analysis of the deposited data

How the results depend on the processing

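Of the differences of the 31 genes under 18 alternatives each, 477 kept their direction and side of the threshold, 20 came to pass it, 2 no longer passed it and 59 changed sign, the last all in genes not called on all 6 arrays without the block. With the replicate block, which pairs arrays of 1 number, 2 of the 31 genes were higher, and no call made without it was lost. By setting, normexp correction gave 1 gene higher, 6 genes passing the replicate test, Gpi1 at -0.060 and Egln1 at -0.0022. Quantile normalization gave 5 lower, a glycolytic median of -0.25, and Gpi1 -0.25, Pfkl -0.048, Pfkm -0.097, Tpi1 -0.054, Eno1 -0.25 and Pdha1 -0.067. Median centring gave 5 lower, and Gpi1 -0.036, Eno1 -0.025, Pdha1 -0.0071, Pdk3 -0.0012 and Egln1 -0.036. The percentile over probes detected on all arrays gave 933 genes higher of all tested, 5 of the 31 lower, and Gpi1 -0.14, Pfkl -0.10, Pfkm -0.079, Eno1 -0.13, Pdha1 -0.12, Pdk3 -0.11, Egln1 -0.14 and Ankrd37 -0.020. The authors' values gave 1120 higher of all, 5 lower, a glycolytic median of -0.25, and Gpi1 -0.25, Pfkl -0.049, Pfkm -0.098, Tpi1 -0.058, Eno1 -0.25 and Pdha1 -0.067. The genes added to the lower ones under these 4 scalings were Hk1 and Pfkfb4. No filter gave 896 higher of all genes, with 19988 tested. The mean of probes and the trend fit gave 1 of the 31 higher each, with 6 passing the replicate test under the trend fit. How many of all genes passed the replicate test with normexp correction or the trend fit was not counted. The median of all genes lay between -0.06 and 0.14 over the settings, so the sign of a small difference depends on the scaling. Leaving out arrays gave 458 to 1730 genes higher and 1042 to 1708 lower of all tested, 0 to 2 of the 31 higher, a hypoxia median of 0.00061 to 0.46 and Hk2 against Hk1 of -0.58 to 0.093. It gave Aldoa -0.28 to 0.042, Ankrd37 -0.35 to 0.74, Egln1 -0.11 to 0.13, Egln3 -0.85 to 0.22, Eno1 -0.18 to 0.25, Gpi1 -0.095 to 0.14, Pdha1 -0.10 to 0.20, Pdk3 -0.051 to 0.17, Pfkfb3 -0.59 to 0.14, Pfkl -0.14 to 0.31, Pfkm -0.041 to 0.27, Slc16a3 -1.27 to 0.10 and Vegfa -0.59 to 0.28. The other causes were not tested. In fits with the block, leaving out 1 array also leaves its pair without weight in the group difference.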

Other observations

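Of the 59 genes with a mean on the replicate 3 arrays at least 1 log2 unit above the other 4, 47 belonged to none of the pathway lists used here. By the replicate F test the first among these was Ciart, a repressor of the circadian clock, which ranked 2 of all genes and shifted by 1.76. Ciart had a scaled log2 signal of -2.74, -2.29 and -0.69 on the Tis21-GFP positive arrays, against -2.88, -2.395 and -0.95 on the negative arrays, so both replicate 3 arrays were above the other 4 and the groups overlapped. It was chosen after its values were seen.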
